A study of Mus musculus with 20 samples.

Results

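Ccl3-low, interferon-low mature neutrophils were 1114 of the 10885 cells in the scRNA-seq of TAM (tumor-associated macrophages) sorted from 4 mice with 4T1.2 mammary cancer. The cells were chosen by thresholds on 13 measured genes, and each cell was judged on corrected counts recovered from the deposited values. A neutrophil-like cell had S100a8+S100a9 of at least 300, Csf3r of at least 1, Csf1r of at most 1 and C1qa of at most 5. A mature cell also had Ngp+Camp+Ltf under 20. Of these, the cells with Ifit1+Isg15+Rsad2 under 5 and Ccl3+Ccl4 under 10 are called members here. The thresholds left 3698 neutrophil-like cells and 3539 mature ones, so members were 31.5% of the mature and 30.1% of the neutrophil-like cells, or 10.2% of all cells. Each mouse gave 1 library of 2318 to 3180 cells. The file numbers the libraries 2 to 5, and these numbers were not matched to the replicate numbers of the labels. All 4 mice were of a single tumor-bearing group, with no genotype, strain, treatment or age given in the labels of these libraries. Hence every comparison is between classes of cells within the same libraries. The labels call all of these cells macrophages isolated from tumor. The series also holds cultured B-MF and Mo-MF (macrophages grown from B cells and from monocytes) and ATAC-seq of CSF1R+ and CSF1R- cells, of which only the Mo-MF cultures were used here.

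Neutrophils are short-lived granulocytes that fill their granules in the bone marrow and leave it as segmented cells carrying CXCR2, the receptor for CXCL1 and CXCL2. Granule protein genes are switched off step by step during maturation, with those for the primary and secondary granules off first and those for gelatinase granules and secretory vesicles later. In inflamed tissue and in tumors, neutrophils can take up NF-kB driven cytokine and chemokine expression, which includes Ccl3 and Ccl4, and interferon can add its own set of antiviral genes. The rule limits only Ccl3, Ccl4, Ifit1, Isg15 and Rsad2 of these programs, so members can hold other transcripts of them. Members are the mature cells under both limits. They were set beside 3 other classes of neutrophil-like cells. These were 543 Ccl3-Ccl4-high cells (at least 10 counts of Ccl3+Ccl4, interferon sum under 5), 1882 interferon-responding cells (interferon sum of at least 5, whatever the Ccl3+Ccl4) and 159 granule-rich cells (Ngp+Camp+Ltf of at least 20). The Ccl3-Ccl4-high and interferon-responding cells together were the 2425 other mature cells.

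Markers that the rule did not use were compared. The 4 neutrophil markers among them were given with the cell type, so they are not an independent check of the label. Cxcr2, Lrg1, Steap4 and Hp (haptoglobin), all expressed by neutrophils, summed to 22.8 to 25.2 mean corrected counts per cell in members of the 4 libraries, 13.8 to 15.1 in the other mature cells and 5.01 to 8.78 in the cells that were not neutrophil-like. They were higher still in granule-rich cells, at 30 to 40.5, so these markers do not set mature cells apart. The 8 macrophage markers outside the rule summed to 5.02 to 6.24 in members, 6.4 to 6.82 in the other mature cells and 23.6 to 44.9 in the cells that were not neutrophil-like. These are descriptions, since the cells set beside members were those that failed the rule. Of the macrophage markers, Adgre1, the gene of a classical macrophage surface antigen, was at 0.0479 to 0.0755 in members and 0.28 to 0.405 in the cells that were not neutrophil-like. The study defines TAM by the surface proteins of Adgre1 and Itgam. In the GRCm38 RefSeq annotation Cxcr2 lies on chromosome 1 (74153994 to 74161246), Csf3r, the gene of the G-CSF receptor, on 4 (126023441 to 126044975), Lrg1 on 17 (56119678 to 56121946), Steap4 on 5 (7960472 to 7982213) and Hp on 8 (109575128 to 109579172).

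Among single members, Hp was detected in 89.9% of cells, Lrg1 in 81.7%, Cxcr2 in 81% and Steap4 in 53.4%. Other mature cells had 73.8%, 67.1%, 74.6% and 38.4% in the same order. In 430 C1q-high cells (C1qa+C1qb+C1qc of at least 50 with Csf1r), which should lack these transcripts, the shares were 23.3%, 23%, 19.5% and 9.3%. The median cell held 7559.5 corrected counts and 1409.5 detected genes among members and 8356 and 2496.5 among C1q-high cells, values that do not show the original depth. The spread within the members was wide. Cxcr2 had a median of 4 corrected counts with 10th and 90th percentiles of 0 and 9, Lrg1 6 with 0 and 18, and Hp 9 with 0 and 22. Between libraries the shares were close, with Hp detected in 85.1% to 92.9% and Cxcr2 in 78% to 83.2% of members.

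Members made up 24.8% of the mature cells in library 2, 39.6% in library 3, 32% in library 4 and 29% in library 5, a mean of 31.4% ± 6.24 (SD, n = 4). In cells, these were 188, 364, 244 and 318. The share was highest in library 3, in which interferon-responding cells were fewest relative to the rest. The thresholds cut through a continuum. Among members 610 (54.8%) had no Ccl3 or Ccl4 count and 56 (5.03%) had 8 or 9, while 34 cells lay just outside at 10 or 11. For the interferon sum, 404 members (36.3%) were at 0 and 108 (9.69%) at 4, with 87 cells just outside at 5. The share is therefore a property of these limits: with an interferon limit of 2 or of 10 in place of 5 the mean share became 18.8% or 41.6%. Only 13 cell barcodes occurred in more than 1 library, and 3 members carried one of them.

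**Figure D1:**
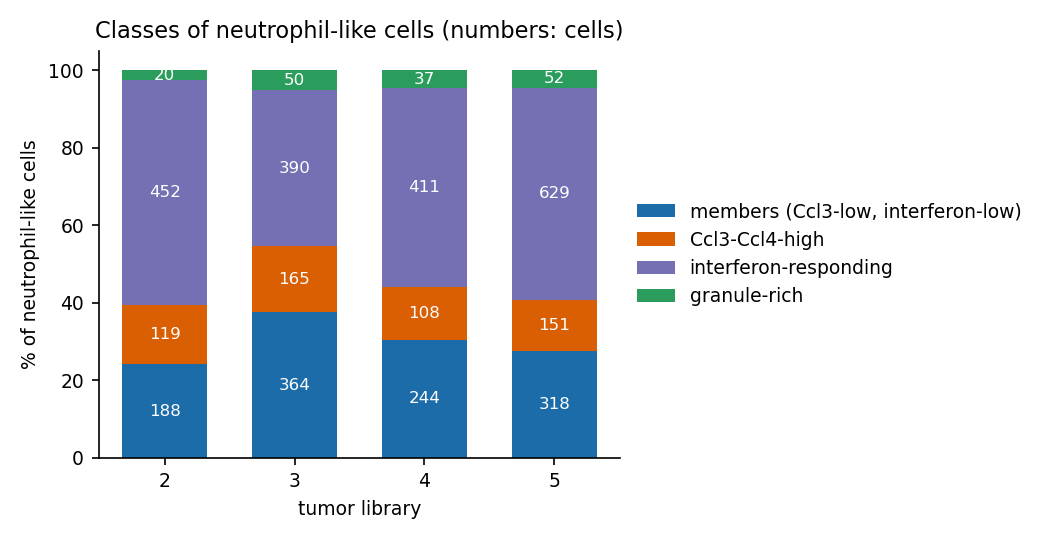
Stacked bars give the percentage of neutrophil-like cells in each class for tumor libraries 2 to 5, and the printed numbers are cells. Members range from 188 cells in library 2 to 364 in library 3.

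Members and the other mature cells were compared as mean corrected counts per cell, with 1 value per class and library, on the scale log2(mean + 0.1), by limma with the library as a block and Benjamini-Hochberg adjustment over all genes tested. The 13 genes of the rule got no test. Of 4440 genes, 691 (15.6%) were higher and 658 (14.8%) lower in members at an adjusted p of at most 0.05, and the median difference over all genes was 0.02. The p-values measure whether a difference recurred over 4 libraries. Both classes were cut from the same cells by their counts, so a gene that varies with Ccl3, Ccl4 or the interferon genes from cell to cell was selected together with them. The median of detected genes per cell was also higher in members in 4 of 4 libraries, by 45 as the mean of the library differences. The p-value was 0.13 by a two-sided exact permutation of signs, and 4 libraries cannot give less. Median corrected counts differed by 10.5 as the mean of the library differences (exact permutation p = 0.25). Restricted to cells in the range of detected genes that both classes share, 499 genes were higher and 524 lower. Without library 5, 433 were higher and 478 lower, and without the library block 432 were higher and 414 lower. Scaled to the same total without the rule genes, 863 were higher and 571 lower.

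The listed mature neutrophil markers were mostly higher in members than in the other mature cells. Of 42 listed genes, all tested, 22 were higher and 8 lower, with a median difference of 0.25. Against granule-rich cells most were lower in members (24 of 42, with 12 higher, median -0.57), so the list does not order cells by maturity. Hp, the plasma hemoglobin scavenger that neutrophils store in granules, was at 9.74, 10.6, 10.5 and 11.3 mean corrected counts in members of libraries 2 to 5 and at 5.15, 5.87, 5.43 and 5.74 in the other mature cells. The groups were far apart, and the log2 difference was 0.91 (SE 0.0659, limma adjusted p = 2.36e-05). Lrg1, a leucine-rich glycoprotein of neutrophil granules, was at 7.67, 7.35, 8.31 and 7.9 against 4.78, 5.07, 4.52 and 4.42, a difference of 0.72 (SE 0.0777, limma adjusted p = 0.000221). Steap4, a metalloreductase, was at 1.33, 1.32, 1.51 and 1.58 against 0.869, 0.987, 0.882 and 0.971, a difference of 0.58 (SE 0.0756, limma adjusted p = 0.000581). Cxcr2 was at 4.1, 3.97, 4.39 and 4.41 against 3, 3.19, 3.4 and 3.47, the smallest difference of these 4 markers at 0.36 (SE 0.066, limma adjusted p = 0.0034). For all 4 genes the lowest member library lay above the highest library of the other mature cells, as it did for 543 of all 4440 genes (12.2%). These 4 markers were given with the cell type, and the members were chosen with earlier results of these data known. Their separation and p-values are therefore a description and not independent support. The 8 lower genes were the formyl peptide receptors Fpr1 and Fpr2, the C-type lectins Clec4d and Clec4e, Itgam, Tnfaip2, Ifitm3 and G0s2, with differences from -0.56 for Fpr2 to -0.22 for Clec4e. Without library 4 the lower genes numbered 4, without library 5 they numbered 5 and without the block 3, while 18 to 21 were higher.

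Outside the rule, the 10 genes with the largest positive difference that also were higher in all 4 libraries were Ifitm6, Cd177, Aldh2, Ggt1, Bmx, Ceacam10, Hp, G6pdx, Add3 and Ly6g. Ifitm6, an interferon-induced transmembrane family member that is expressed in myeloid cells, led with 6.22, 7.16, 8.69 and 6.76 in members against 2.66, 3.34, 3.03 and 2.78, a difference of 1.25 (SE 0.0808, limma adjusted p = 1.16e-05). Cd177, a surface and granule glycoprotein of neutrophils, was at 0.84, 0.937, 1.02 and 0.874 against 0.368, 0.42, 0.437 and 0.326, a difference of 1.06 (SE 0.0691, limma adjusted p = 1.19e-05). Ly6g, the surface marker by which mouse neutrophils are usually recognised, was at 0.91, 1.16, 1.14 and 1.11 against 0.543, 0.537, 0.541 and 0.567, a difference of 0.86. Bmx, a Tec family tyrosine kinase, was at 0.351, 0.442, 0.455 and 0.45 against 0.114, 0.211, 0.185 and 0.163, a difference of 0.98. These 4 genes did not overlap between the classes, which follows from their choice as the largest differences. Aldh2 (aldehyde dehydrogenase) differed by 1.01, Ceacam10 by 0.95 and the cytoskeletal adducin Add3 by 0.87, while Ggt1 (gamma-glutamyltransferase) had means of 0.291 and 0.0955. G6pdx, which opens the pentose phosphate pathway that supplies NADPH, was at 0.42, 0.495, 0.713 and 0.509 against 0.196, 0.272, 0.254 and 0.24, a difference of 0.88 (SE 0.0903, limma adjusted p = 0.000173). Further enzymes of that pathway, chosen after their values were seen, were Pgd with a difference of 0.65 and Tkt with 0.65 (limma adjusted p = 0.000245 and 0.000211). G6pdx, Aldh2, Ggt1, Ceacam10 and Add3 were not highest in members. Their means in granule-rich cells were 2.58, 5.59, 1.58, 1.85 and 0.977. Members differed from granule-rich cells by -2.09 for G6pdx (limma adjusted p = 1.63e-08) and by -0.89 for Add3 (limma adjusted p = 0.00096).

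Of 21 listed granule protein genes outside the rule 15 were tested, and 10 of them were higher and 2 lower, with a median difference of 0.46. The list shares genes with the mature markers, among them Cd177, Hp, Ly6g, Pglyrp1 and Itgam, so the lists are not separate evidence. Cd177, Hp, Ly6g and the bactericidal peptidoglycan binding protein Pglyrp1 were the largest, the last at 7.09, 6.5, 7.33 and 7.14 in members against 3.85, 3.83, 4.31 and 3.88 (difference 0.81, limma adjusted p = 5.03e-05). Lcn2, the siderophore binding protein of secondary granules, was at 18 to 21.4 in members and 10.7 to 14.3 in the other mature cells (difference 0.70, limma adjusted p = 0.000372). Olfm4 (-0.33) and Itgam (-0.28) were the lower genes. Without library 4 none was lower, without library 5 or without the block 1, and without library 2 there were 3. Mpo, Elane and Ctsg of the primary granules were among the 6 listed genes below the expression filter. Of the rule's own granule genes, given with no test, Ngp was at 0.865 to 1.23 in members, 0.353 to 0.778 in Ccl3-Ccl4-high cells and 100 to 129 in granule-rich cells, while Camp stayed at 0.00532 to 0.0687 in members and 0.0084 to 0.0485 in Ccl3-Ccl4-high cells.

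Against the granule-rich cells, the members stood apart in the other direction for the same granule and membrane genes, and in this 4-class fit both comparisons share the members. Cd177 was at 8.35, 8.7, 8.3 and 8.31 in granule-rich cells of libraries 2 to 5, a difference of -3.07 for members (SE 0.12, limma adjusted p = 1.3e-09). Ifitm6 was at 65.2, 61.3, 47.5 and 57 (difference -2.99, limma adjusted p = 1.82e-08) and Ly6g at 8, 8, 6.22 and 9.75 (difference -2.77, limma adjusted p = 1.3e-09). For these genes the mean over libraries was highest in granule-rich cells, lower in members and lowest in the Ccl3-Ccl4-high and interferon-responding cells, whose means were 0.48 and 0.366 for Cd177. Hp and Lrg1 had the same order with smaller steps, at 17 and 14.8 in granule-rich cells, 10.5 and 7.81 in members and 5.32 and 4.41 in Ccl3-Ccl4-high cells. Pglyrp1 was at 25.5, 7.02 and 3.96 in the same classes. Bmx had means of 0.424 in members and 0.506 in granule-rich cells, a difference of -0.17 that did not pass (limma adjusted p = 0.304) and that became -0.39 when scaled to the same total (limma adjusted p = 0.0331).

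Steap4 had its highest mean in the members among the 4 classes. It was at 0.6, 0.76, 0.649 and 0.885 in granule-rich cells, 0.91 below members on the log2 scale (limma adjusted p = 2.37e-05), and at 0.639 to 0.944 in Ccl3-Ccl4-high cells, 0.77 below (limma adjusted p = 0.00215). In interferon-responding cells it was at 0.866 to 1.02, 0.53 below members (limma adjusted p = 0.0129), a call lost without library 4 or library 5 (limma adjusted p = 0.0716 and 0.0784). Against the interferon-responding cells with Ccl3+Ccl4 under 10 the difference of 0.34 did not pass (limma adjusted p = 0.228). Csf3r, given with no test, had the same order with means of 7.11 in members, 3.53 in granule-rich cells, 5.55 in Ccl3-Ccl4-high cells and 5.99 in interferon-responding cells. Cxcr2 had means of 4.22 in members and 3.6 in granule-rich cells, and this difference of 0.24 (limma adjusted p = 0.163) turned to -0.02 when each class was scaled to the same total without the rule genes.

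**Figure D2:**
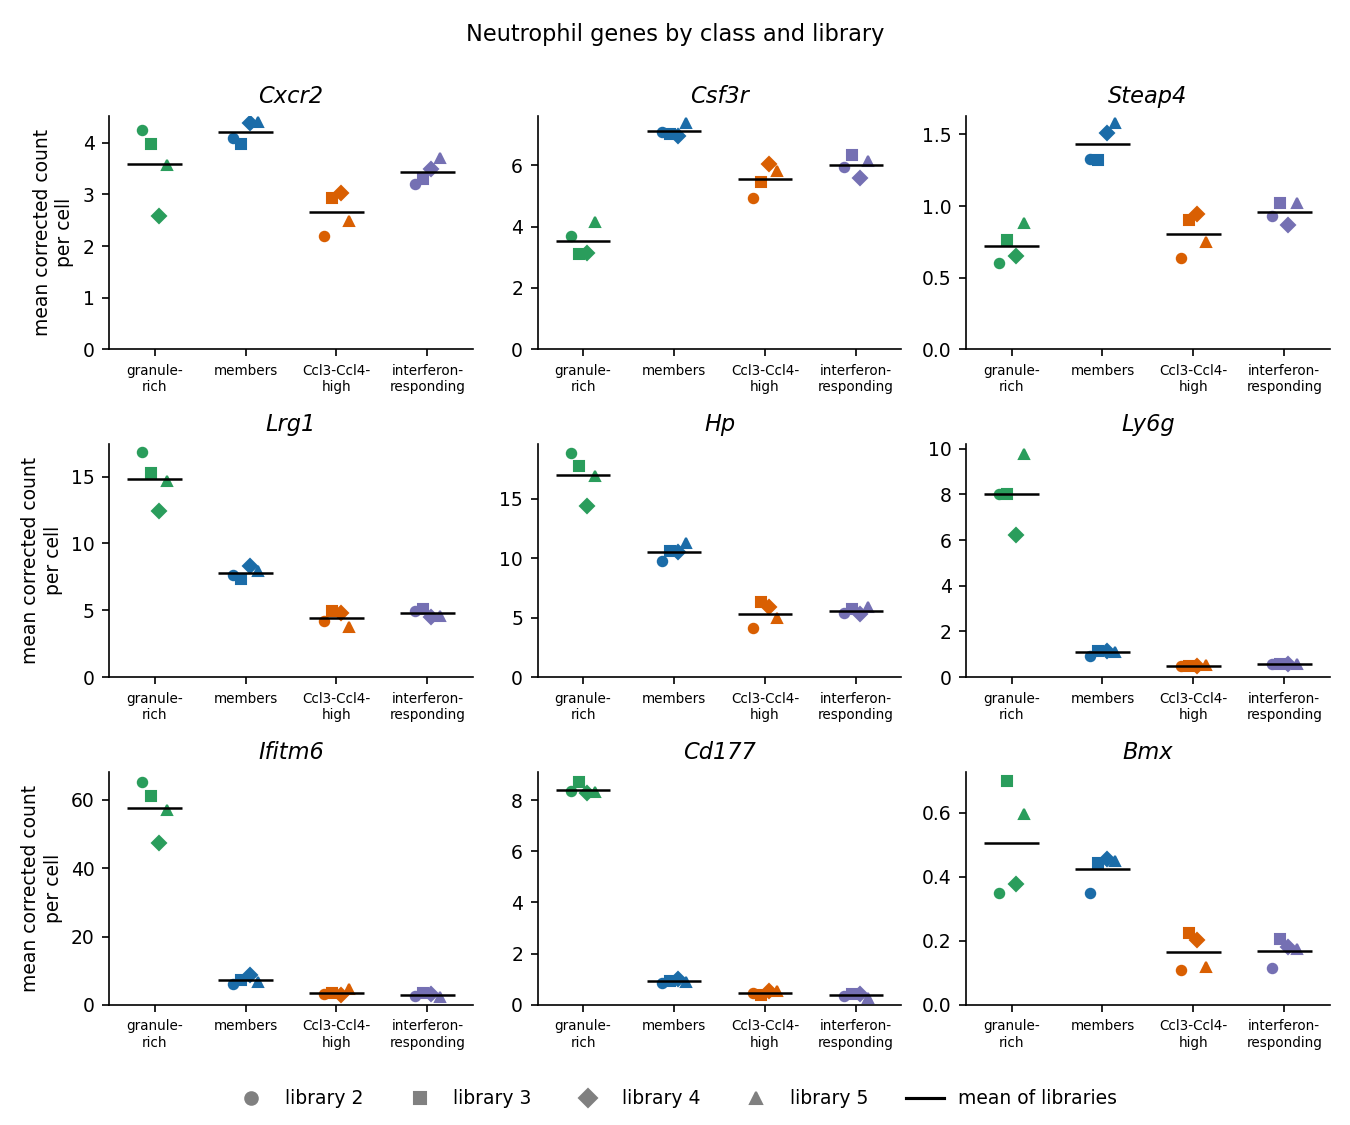
Mean corrected counts per cell (linear axes from 0) of 9 neutrophil genes in granule-rich cells, members, Ccl3-Ccl4-high and interferon-responding cells, with 1 symbol per library and a bar at the mean of 4 libraries. Steap4 and Csf3r are highest in members, while Lrg1, Hp, Ly6g, Ifitm6 and Cd177 step down from granule-rich cells to members and again to the other mature classes.

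Over all genes the granule-rich comparison was wide and uneven. Of 4391 genes, 2333 (53.1%) were higher and 450 (10.2%) lower in members, with a median difference of 0.41. The rule's own genes took 36.8% to 39.9% of the corrected counts of the median granule-rich cell and 16.2% to 18.2% of those of the median member. After scaling to the same total without those genes the counts were 1611 higher and 692 lower, with a median of 0.23. The list differences must be read against that median. Granule protein genes were lower in members (14 of 16 tested, 1 higher, median -1.49). This goes along with the limit on Ngp, Camp and Ltf that separates these classes. Of the others, 5 of the 6 NADPH oxidase genes were lower (median -0.70), among them Cybb, the catalytic subunit gp91phox, at means of 0.729 in members and 5.64 in granule-rich cells. The tumor-conditioned list was higher in 20 of 22 genes (median 1.24) and the cytokine list in 27 of 34 (median 1.10). The immediate-early list was higher in 23 of 26 (median 1.19) and the glycolysis list in 24 of 31 (2 lower, median 0.96). Members thus held more of these transcripts than the granule-rich cells, although less of many of them than the other mature cells, as follows. Mature markers were lower in 24 and higher in 12 of 42 (median -0.57), trafficking genes higher in 11 and lower in 4 of 19 (median 0.37), and transcription factors higher in 10 and lower in 2 of 16 (median 0.85). Nfe2 was among the lower factors, at means of 0.269 in members and 1.01 in granule-rich cells. The interferon list had 10 higher and 5 lower of 32 (median 0.04), and ribosomal protein genes 44 higher and 5 lower of 83 (median 0.26, close to that of all genes).

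Cytokine and NF-kB response genes were lower in members than in the other mature cells, a list that goes along with the Ccl3 and Ccl4 of the rule. Of 35 listed genes 34 were tested, of which 21 were lower and 1, the receptor Tlr2 at 0.25, was higher, with a median of -0.50. The higher call was lost without library 3, 4 or 5 and without the block. Tnf was at 0.431, 0.234, 0.225 and 0.255 in members and 1.53, 0.65, 1.26 and 0.764 in the other mature cells, a difference of -1.53 (SE 0.132, limma adjusted p = 6.27e-05). The member level was highest in library 2, where the other mature cells were also highest. Il1a was at 0.856, 0.478, 0.607 and 0.67 against 2.48, 1.34, 2.08 and 1.59, a difference of -1.38 (SE 0.087, limma adjusted p = 1.08e-05). The neutrophil attractant Cxcl1 was at 0.511, 0.431, 0.34 and 0.472 against 1.61, 1.3, 1.19 and 0.897, a difference of -1.31 (SE 0.117, limma adjusted p = 7.78e-05). Il23a, a subunit of IL-23, differed by -1.30 (SE 0.166, limma adjusted p = 0.000519). These 4, picked as the largest of the list, did not overlap between classes, and 445 of all 4440 genes (10%) lay without overlap on the lower side. Low relative to the rest did not mean absent. Cxcl2, a second CXCR2 ligand, was at 110, 98.9, 89 and 111 mean corrected counts in members against 220, 177, 197 and 193, a difference of -0.95 (limma adjusted p = 5.03e-05), and Il1b was at 55.9 to 67 in members and 71 to 85.8 in the other mature cells, a difference of -0.36 (limma adjusted p = 0.00403). Nfkbia, the inhibitor that NF-kB itself induces, was at 17.2 to 25.2 against 27.5 to 39.1 (difference -0.70). Cxcl2, Il1b and Nfkbia were named after their values were seen, for their level.

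Genes described in neutrophils conditioned by tumors were also lower in members, 15 of 22 tested with none higher and a median of -0.45. Of the 24 listed genes, Siglecf and Tnfrsf10b fell below the filter. Cd274, which encodes the checkpoint ligand PD-L1, was at 1.47, 1.51, 1.75 and 1.69 in members and 3.51, 3.17, 3.86 and 3.84 in the other mature cells, a difference of -1.11 (SE 0.0675, limma adjusted p = 8.39e-06). Csf1, the gene of M-CSF on which macrophages depend, was at 1.43, 1.42, 1.23 and 1.55 against 2.71, 3.37, 3.05 and 2.87, a difference of -1.04 (SE 0.0872, limma adjusted p = 5.32e-05). Tgm2 (transglutaminase) differed by -0.70 and Hmox1 (heme oxygenase) by -0.68, the latter at 4.48, 4.68, 3.52 and 4.82 against 7.34, 7.31, 6.26 and 7.17. All 4 genes were lower in members of every library.

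Of the 31 glycolysis and hypoxia genes, all tested, 25 were lower in members, none was higher, and the median was -0.37. Without the library block 12 were lower. Hk2, an inducible hexokinase, was at 2.49, 3.18, 1.99 and 1.99 in members and 3.19, 5.27, 3.6 and 3.94 in the other mature cells, a difference of -0.71 (SE 0.0984, limma adjusted p = 0.00079). Across libraries the member level of library 3 nearly met that of the other mature cells of library 2, but within each library members were lower. Hilpda, a hypoxia-induced lipid droplet protein, was at 13.3, 16.2, 11.1 and 17.3 against 20.5, 25.5, 19.9 and 26.2 (difference -0.67, limma adjusted p = 0.000204), and Pfkp and Hk1 differed by -0.66 and -0.60. Vegfa was at 0.463 to 1.26 in members against 0.706 to 1.79, a difference of -0.43 (limma adjusted p = 0.00162). Both classes were highest in library 3, so the ranges overlapped, but members were lower within every library.

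All 34 tested interferon-stimulated genes outside the rule were lower in members, with a median of -1.29, which restates the limit set on Ifit1, Isg15 and Rsad2. The 10 genes of largest negative difference were all interferon-inducible (Herc6, Slfn5, Gbp5, Ifi47, Ifit2, Gbp2b, Gbp7, Usp18, Parp14 and Rtp4). Herc6, an ISG15 ligase, was at 0.0585 to 0.0786 in members and 0.508 to 0.705 in the other mature cells (difference -2.05). Gbp2b, a guanylate-binding protein, was at 2.46, 1.49, 2.89 and 2.4 in members against 7.59, 4.44, 8.82 and 8.91. Library 3 was lowest in both classes, and the same was seen for Gbp5, at 0.118 in members of library 3 and 0.204 to 0.628 in the other libraries. Against the Ccl3-Ccl4-high cells, which met the same interferon limit, 2 of 32 tested genes of the list were lower and none higher (median -0.11), near the 5.17% of all genes that were lower in that comparison. Parp14 had means of 0.587 in members, 0.576 in Ccl3-Ccl4-high and 2.35 in interferon-responding cells.

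The other lists were mixed. Of 19 trafficking and adhesion genes, 4 were higher and 6 lower (median -0.07), where 15.6% and 14.8% of all genes were. Selplg, the P-selectin ligand, was at 2.23, 2.53, 2.7 and 2.63 in members against 1.51, 1.77, 1.84 and 1.59 (difference 0.56, limma adjusted p = 0.000418), and Itgal, the alpha chain of LFA-1, differed by 0.48. Icam1, the ligand of LFA-1, was at 0.553, 0.319, 0.402 and 0.296 against 1.2, 0.535, 0.973 and 0.749 (difference -0.95, limma adjusted p = 0.000143), with the chemerin receptor Ccrl2 at -0.92 and Fpr2 at -0.56. Members of library 2 reached the Icam1 level of the other mature cells of library 3, and within each library members were lower. Cxcr4, which retains neutrophils in bone marrow and rises with age, did not pass the test (0.20, limma adjusted p = 0.109). Of 26 immediate-early genes tested, 10 were lower and 2, Klf4 and Btg2, higher (median -0.15). Without library 3, without library 4 or without the block none was higher, and without the block 6 were lower. Zfp36, which destabilises cytokine mRNA, differed by -0.65, Maff by -0.56, Jun by -0.48 and the quiescence factor Klf2 by -0.45. Without the library block, Jun and Klf2 no longer passed (limma adjusted p = 0.246 and 0.126).

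Among the genes the study names for B-MF, Egr1 was at 5.45, 6.88, 5.03 and 6.04 in members against 7.49, 8.73, 7.92 and 7.2 (difference -0.42, limma adjusted p = 0.00432). The call was lost with an interferon limit of 2 (limma adjusted p = 0.0574), and against Ccl3-Ccl4-high or interferon-responding cells taken alone Egr1 had differences of the same size, -0.43 and -0.42, that did not pass (limma adjusted p = 0.097 and 0.131) and did with a pseudocount of 1 (limma adjusted p = 0.0187 and 0.0255). Ier3 was at 9.41, 12.7, 8.73 and 10.4 against 13.9, 17.4, 11.3 and 13.2 (difference -0.43, limma adjusted p = 0.00172). Against Ccl3-Ccl4-high cells alone Ier3 differed by -0.70 (limma adjusted p = 0.0159, lost without library 2, 3 or 5), and against interferon-responding cells by -0.35 (limma adjusted p = 0.233). Ier2 (0.06, limma adjusted p = 0.519) and the iron exporter Slc40a1 (0.06, limma adjusted p = 0.568) did not pass. Mean levels in members were 5.85 for Egr1, 10.3 for Ier3, 2.03 for Ier2 and 0.877 for Slc40a1, beside 1.47 to 2.74 for the macrophage transcript Apoe, and the part of free RNA in them was not tested.

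Of the 6 NADPH oxidase genes only Rac2, its small GTPase, passed the test in members (5.56, 5.43, 5.36 and 5.19 against 3.59, 3.63, 3.64 and 3.47, difference 0.57, limma adjusted p = 0.000268). This is 1 of 6 where 15.6% of all genes were higher. With a pseudocount of 1 or the mean of log values 4 were higher. With a mean of at least 0.5 or the variance fitted along mean level 3 were. Cyba, the membrane partner of Cybb, differed by 0.14 and missed the threshold (limma adjusted p = 0.13). It passed under each of these alternatives, with a pseudocount of 1 at limma adjusted p = 0.00347. Rac2 had a mean of 10.6 in granule-rich cells and 5.39 in members. Among 15 tested transcription factors 3 were higher and 3 lower (median -0.08), near the shares over all genes (15.6% and 14.8%). Only 1 was higher without library 3, 4 or 5 or without the block. With a pseudocount of 1 or the variance fitted along mean level 6 were lower, and with the mean of log values 5. Nfe2 was at 0.309, 0.234, 0.279 and 0.255 against 0.11, 0.119, 0.127 and 0.127 (difference 0.74, limma adjusted p = 0.000207), while Runx3 and Runx1 differed by -0.61 and -0.35. The myeloid factor Spi1 was higher by 0.23 and Cebpd by 0.27. Of 83 ribosomal protein genes 11 were higher and none lower, with a median of 0.12 and Rplp0 the largest at 0.38. This is 11 of 83 where 15.6% of all genes were higher. With a pseudocount of 1 the count was 47, scaled to the same total 17, with an interferon limit of 2 it was 2, without library 3 or 5 or without the block it was 3, without library 4 it was 4 and without library 2 it was 7. It was 34 with the variance fitted along mean level. The mean of log values gave 40 higher and 3 lower. The median share of ribosomal protein genes in a cell's corrected counts was higher in members in 4 of 4 libraries. The mean of the library differences was 0.233 percentage points.

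**Figure D3:**
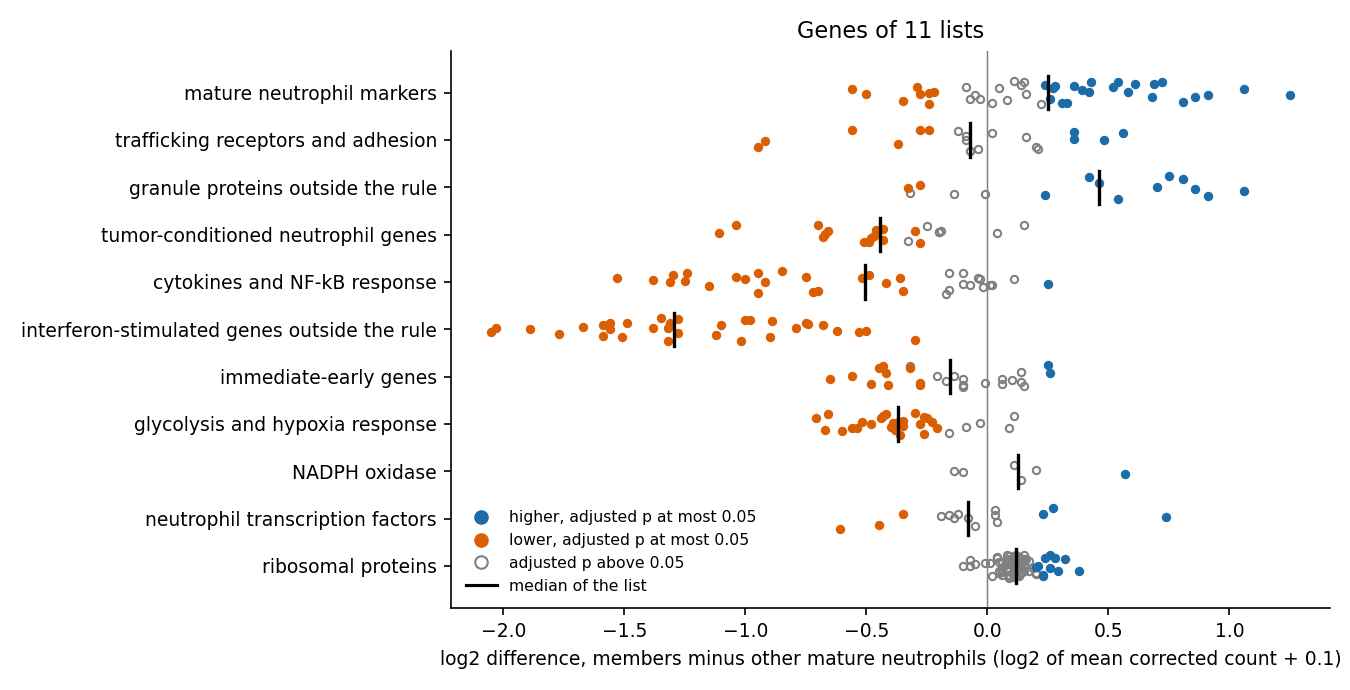
Each point is 1 gene of a list at its log2 difference between members and other mature cells, filled where the limma adjusted p was at most 0.05, with a black line at the median of the list. Granule proteins (median 0.46) and mature markers (0.25) lie to the right, and cytokine (-0.50), tumor-conditioned (-0.45), glycolysis (-0.37) and interferon genes (-1.29) to the left. Against granule-rich cells, not drawn here, granule proteins (-1.49) and mature markers (-0.57) had medians below 0.

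The other mature cells hold both kinds of response, so the members were also compared with each class on its own. All these comparisons share the members. The median of detected genes per cell was lower in members than in Ccl3-Ccl4-high cells of libraries 2, 3 and 4. In library 5 it was higher, at 1469 against 1342. Compared with interferon-responding cells it was higher in members of every library. Against the Ccl3-Ccl4-high cells, 244 genes (5.56%) were higher and 227 (5.17%) lower in members. Scaled to the same total, these were 289 and 146. Without library 5 these counts were 43 and 50, without library 2 they were 128 and 108, and without library 3 they were 102 and 94. Against the interferon-responding cells 180 (4.1%) were higher and 198 (4.51%) lower. Without library 5 these counts were 53 and 111, without library 3 they were 74 and 120, without library 4 they were 97 and 131, and without library 2 they were 112 and 160. Of the interferon-responding cells, 744 also had Ccl3+Ccl4 of at least 10. With these left out, an alternative chosen after seeing the data, 48 genes (1.09%) were higher and 128 (2.91%) lower in members.

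The response lists had these counts in each comparison. Of all genes, 5.17%, 4.51% and 2.91% were lower in members in the comparisons in the order given. Against Ccl3-Ccl4-high cells, 15 of 34 cytokine genes were lower in members (median -0.53), 13 of 22 tumor-conditioned genes (median -0.63), 16 of 31 glycolysis genes (median -0.46) and 5 of 26 immediate-early genes (median -0.05, 1 higher). Against all interferon-responding cells, 11 of 34 cytokine genes were lower (median -0.48), 6 of 22 tumor-conditioned genes (median -0.37), 3 of 31 glycolysis genes (median -0.32), 2 of 26 immediate-early genes (median -0.18) and 31 of 32 interferon-stimulated genes (median -1.52). Against interferon-responding cells with Ccl3+Ccl4 under 10, none of 33 cytokine genes passed (median -0.33), 2 of 22 tumor-conditioned genes were lower (median -0.09), and none of 31 glycolysis genes (median -0.16) or 26 immediate-early genes (median -0.12) passed, while 30 of 32 interferon-stimulated genes were lower (median -1.49). Whether the differences of these lists are unequal between the comparisons was not tested. Hmox1 had a mean of 4.38 in members, 9.08 in Ccl3-Ccl4-high cells and 4.73 in interferon-responding cells with low Ccl3+Ccl4. Its difference was -1.04 from the former (limma adjusted p = 0.000963) and -0.10 from the latter (limma adjusted p = 0.878). Il1a had means of 0.653, 2.48 and 1.25 in the same order (differences -1.78 and -0.81, limma adjusted p = 0.00265 and 0.214). Cd274 was lower in members in both cases, with means of 1.61, 3.09 and 3.06 (differences -0.88 and -0.89, limma adjusted p = 0.0158 and 0.0201). The call against Ccl3-Ccl4-high cells was lost without library 2 or library 4 (limma adjusted p = 0.0771 and 0.0842). Tgm2 had means of 1.03, 1.42 and 1.96 (differences -0.41 and -0.87, limma adjusted p = 0.131 and 0.00639).

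**Figure D4:**
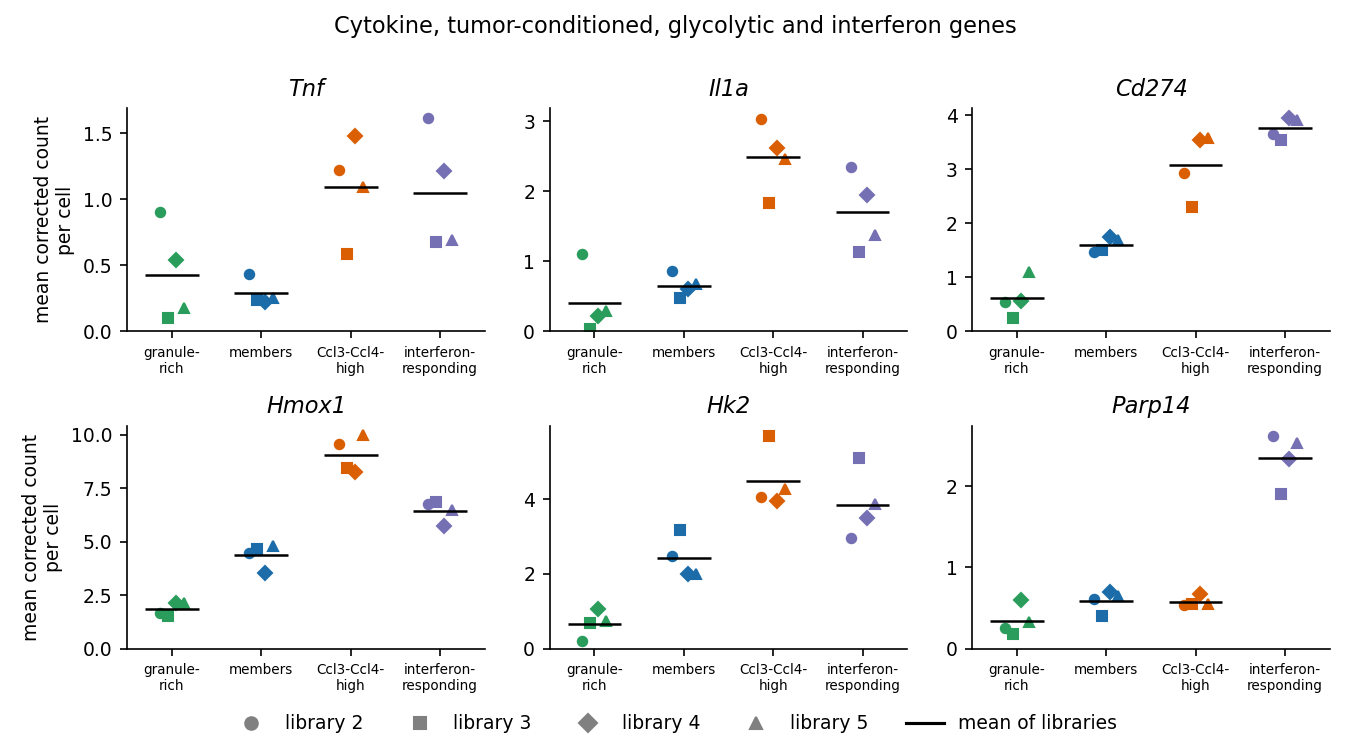
Mean corrected counts per cell (linear axes from 0) of 6 genes in the 4 classes, with 1 symbol per library and a bar at the mean of 4 libraries. Tnf, Il1a, Cd274, Hmox1 and Hk2 have a higher mean in both other mature classes than in members, and Parp14 only in the interferon-responding cells (2.35 against 0.587 in members).

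Some of the mature and granule genes passed in members against each class. Against Ccl3-Ccl4-high cells, 17 of 42 mature markers were higher and 1 lower (median 0.29), and 8 of 16 granule genes were higher and 2 lower (median 0.45). Of all genes, 5.56% were higher and 5.17% lower. Against interferon-responding cells with low Ccl3+Ccl4, 8 mature markers were higher and 2 lower (median 0.14), and 5 granule genes were higher and none lower (median 0.45). Here 1.09% of all genes were higher and 2.91% lower. The few lower mature markers were near these shares in both comparisons. Cd177 had means of 0.918 in members, 0.48 in Ccl3-Ccl4-high cells and 0.433 in interferon-responding cells with low Ccl3+Ccl4 (differences 0.82 and 0.95, limma adjusted p = 0.00153 and 0.0005). Ifitm6 had means of 7.21, 3.5 and 3.25 (differences 1.03 and 1.14, limma adjusted p = 0.00261 and 0.00138), and Hp of 10.5, 5.32 and 6.97 (differences 0.99 and 0.59, limma adjusted p = 0.00111 and 0.0186). Lrg1 and Pglyrp1 passed against the former (limma adjusted p = 0.00145 and 0.00299) and not against the latter, with differences of 0.41 and 0.52 (limma adjusted p = 0.0774 and 0.0688). Without library 5 the Pglyrp1 call against the Ccl3-Ccl4-high cells was lost (limma adjusted p = 0.0502). Cxcr2 had means of 4.22, 2.66 and 4.05. It was 0.66 lower in the Ccl3-Ccl4-high cells (limma adjusted p = 0.0147), a call lost without library 2, 3 or 5 (limma adjusted p = 0.0584, 0.0517 and 0.133), and in the interferon-responding cells with low Ccl3+Ccl4 the difference was 0.06 (limma adjusted p = 0.949).

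The levels of some genes shifted along the Ccl3+Ccl4 sum. This is a description of cells with an interferon sum under 5, ordered by the measure that chose them. From 610 cells with no Ccl3 or Ccl4 count to 187 cells with 50 or more, the mean over libraries of Hp went from 12.1 to 3.34, of Lrg1 from 8.65 to 2.85, of Cxcr2 from 4.75 to 2.16 and of Steap4 from 1.51 to 0.569. Over the same range Cxcl2 went from 95.2 to 342, Nfkbia from 17.4 to 42.8 and Cd274 from 1.19 to 3.79. Within the members alone, Hp was at 12.1 with no count, 10.4 at 1 to 2, 7.65 at 3 to 5 and 6.92 at 6 to 9. The 143 cells just beyond the limit, at 10 to 19, had 7.58, so members at 6 to 9 did not differ from them beyond the range of the libraries (4.54 to 8.98 and 6.1 to 8.73). Tnfaip3, an inhibitor of NF-kB, was at 1.42 at 3 to 5 (0.967 to 1.83 over libraries), 0.884 at 6 to 9 (0.484 to 1.18) and 1.81 at 10 to 19 (1.46 to 2.16), so it did not change evenly. Il1b was at 65.3 with no count and 54.7 at 1 to 2, and rose from there in each bin to 78.5 at 50 or more. Junb, Mmp8, Slpi and Slc40a1 had no steady course, with Junb between 18.6 and 21.1 in all bins.

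**Figure D5:**
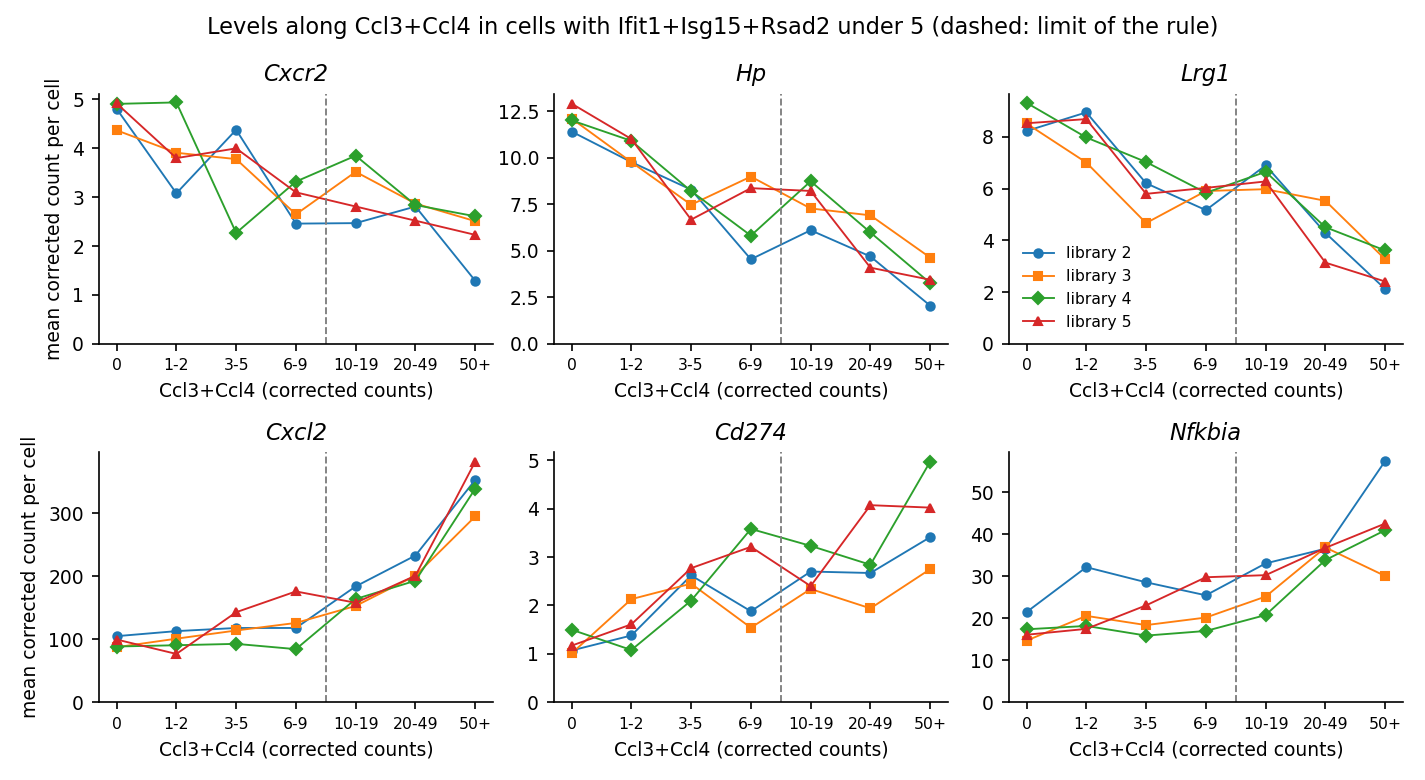
Mean corrected counts per cell (linear axes from 0) of 6 genes in 7 bins of Ccl3+Ccl4, with 1 line per library, in mature cells with an interferon sum under 5, where the dashed line is the limit of the rule. The means of Cxcr2, Hp and Lrg1 are lower in the last bin than in the first, with a small rise across the limit, and those of Cxcl2, Cd274 and Nfkbia are higher, from 95.2 to 342 for Cxcl2.

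Transcripts of other cell types were low in members but not equal between libraries. The 6 B cell markers summed to 0.016 to 0.39 in members and 0.018 to 0.0366 in the other mature cells. Igkc, the kappa light chain constant region, was at 0, 0.635, 0.25 and 0.107 in members of libraries 2 to 5 and 0.00525, 0.0306, 0.0289 and 0.0154 in the other mature cells. It passed the test (difference 1.18, limma adjusted p = 0.0203) but was not higher in library 2. The call was lost without library 4 (limma adjusted p = 0.0963) and without the library block (limma adjusted p = 0.0753). With Ccl3+Ccl4 under 5 the difference was 0.42 (limma adjusted p = 0.0868). The call was also lost with a pseudocount of 0.01, with no filter and with the mean of log values (limma adjusted p = 0.0682, 0.228 and 0.167). Igkc fell below the filter without library 3, in the shared range of detected genes and without cells holding markers of other types, which are counted below. Cd79a was at 0.00532, 0.143, 0.082 and 0.044 in members and 0.00525 to 0.0173 in the other mature cells. Library 3 was highest for both. Cells with markers of B, T or NK, dendritic, fibroblast or epithelial cells were then counted, and macrophage and monocyte markers were left out of this count. In all, 45 of 1114 members and 58 of 2425 other mature cells held 2 or more counts for such a type, a larger share of the members. Without these cells 651 genes were higher and 643 lower, close to the full counts. Summed T and NK markers were at 0.041 to 0.122 in members, dendritic cell markers at 0.0213 to 0.16 and fibroblast markers at 0 to 0.0287. The T and NK sum rested on Cd3d, at 0.041 to 0.122, while Cd3e, Cd3g, Trbc2 and Ncr1 were at 0 in members. In granule-rich cells Cd3d was at 0.22 to 0.35. No doublet caller was run, and the part of cells captured together in these values was not tested.

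In the Mo-MF cultures, which had no share in the choice of the members, the rule found 3 of 4846 cells in replicate 1 and 5 of 5389 in replicate 2, beside 8 and 4 other mature cells and 46 and 27 granule-rich cells. No comparison was made on so few. With the limits scaled to the lower level of that table, 28 and 23 cells met the rule and 12 and 7 were other mature cells, again under the minimum of 20.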

How the data were processed

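The study's scRNA-seq of tumor macrophages from 4 mice and of 2 Mo-MF cultures was used. Per the study's methods, the authors counted transcripts with Cell Ranger, kept cells over a minimum of detected genes and corrected the counts with SCTransform in Seurat. The submitters' processing notes name the mm10 build. On the values the authors deposited, 1 had been added to each corrected count and the natural log taken. They were converted back and rounded to whole numbers. Since correction removes differences in sequencing depth, no count model was fitted and the original depth is unknown. Errors are those between libraries. Cell clusters of the study were not used, and 10563 B-MF cells were not analysed here.

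The members and the gene lists were chosen with earlier results of these data known. Classes were cut with fixed limits, corrected counts were averaged per class and library, and log2(mean + 0.1) was compared with limma 3.58.1 (lmFit, eBayes; R 4.3.3), with library as a block and genes with a mean of at least 0.1. A class needed 20 cells in every library. Both classes of a comparison came from the same mouse, which is the source of the pairing. The 4 classes (members, Ccl3-Ccl4-high, interferon-responding, granule-rich) entered 1 fit. Named were 5 markers, the rule genes, the 10 largest differences in each direction with the same sign in 4 libraries, 4 genes the study names, and from each list up to 4 genes of largest difference or its defining ones. Genes named beyond this (among them Cxcr4, Lcn2, Itgal, Vegfa, Spi1, Cebpd, Igkc and Cd79a) were picked with their values known. The fit was tested on simulated data. Alternatives were other pseudocounts, filters, scaling, limits of the rule, no block, and each library left out. Others were the mean of log values and the variance fitted along mean level. Results of some genes are not reported here. The libraries 2 to 5 were not tied to the labels' replicate numbers. RefSeq positions are from GRCm38.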

Additional observations from a re-analysis of the deposited data

Results flagged for a closer look

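Of 89 sets of 4 library values in members, 2 held a library far from the others (chance gives about 1 in 20). Bmx was at 0.351 in library 2 and 0.442 to 0.455 in the others, and Tnf was at 0.431 in library 2 and 0.225 to 0.255 in the others. Outside the tumor data, 5 of 5389 cells of Mo-MF culture replicate 2 met the rule, and 3 of 4846 in replicate 1, which is too few to compare.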

How the results depend on the processing

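Against the other mature cells, 1082 of 1109 values of named genes under the alternatives kept direction and side of the threshold, 14 lost the call, 12 gained it and 1 reversed, Cybb (0.05 with an interferon limit of 2). The 691 higher genes became 366 with a mean of at least 0.5 (fewer genes tested), 411 with that interferon limit and 433 to 647 with 1 library left out. With the library pairing dropped (no replicate block), 432 were higher and 414 lower, and Jun, Klf2 and Rps24 (limma adjusted p = 0.246, 0.126 and 0.0577) were no longer called. Against Ccl3-Ccl4-high cells the block changed the calls of Icam1, Zfp36, Jun and Hk2 (limma adjusted p = 0.188, 0.161, 0.151 and 0.073 without it). The 471 genes in all called in that comparison became 729 with a pseudocount of 1 and 93 to 324 with 1 library left out, and the 378 against interferon-responding cells 164 to 272 with 1 left out and 176 without their Ccl3-Ccl4-high cells. The 2783 against granule-rich cells became 1211 with a mean of at least 0.5. The share of members, 31.4%, became 18.8% or 41.6% with an interferon limit of 2 or 10. In the Mo-MF cultures, 8 cells became 51 with scaled limits. The cause of these shifts was not tested beyond the number of genes or libraries.

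Differences near 0 turned sign. On scaling these were Rtp4 against Ccl3-Ccl4-high (0.00) and, against granule-rich cells, Cxcr2 (-0.02), Ifi47 (-0.09) and Runx3 (-0.15). With 1 library left out, against Ccl3-Ccl4-high cells Ifi47 ran from -0.18 to 0.00, Ifit2 from -0.24 to 0.03, Parp14 from -0.06 to 0.13, Rtp4 from -0.14 to 0.01 and Cybb from -0.26 to 0.07. Likewise, against granule-rich cells Slfn5 ran from -0.07 to 0.09, Tnf from -0.50 to 0.07 and Runx3 from -0.13 to 0.11, and against interferon-responding cells Cybb from -0.31 to 0.01. Without the Ccl3-Ccl4-high cells among the latter, Ier2 became -0.07. The cause was not tested.

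Counting error of cells near a limit was not modelled. Each library is 1 mouse, and the comparison with granule-rich cells rests on 20 cells in library 2.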
